A study of Mus musculus with 6 samples.

Results

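A list of 10 genes that mark endothelial cells, the cells that line blood and lymph vessels, was followed in RNA-seq libraries of mouse osteoblasts. The cells came from the skull vault (calvaria) of neonates and were put through osteogenic differentiation before RNA was taken. Members were the rows of the deposited gene table whose symbol matched the list, and 7 of the 10 listed genes had a row, out of 29018 rows in all. They were Cdh5, Pecam1, Esam, Tek, Ramp2, Plvap and Egfl7. Tie1, Emcn and Cldn5 were not analysed here. Cells labelled as knockout (KO) for NDR1, a protein kinase whose gene is Stk38, gave 3 libraries and wild-type (WT) cells gave 3, all of polyA RNA. The labels gave neonatal age and genotype, but not the strain, the sex, the KO allele or whether replicates were separate animals or cultures, so p-values speak of the variation among these 6 libraries alone, and that variation may be technical.

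Endothelial cells are held together by junctions in which VE-cadherin, PECAM-1 and ESAM bind neighbouring cells to each other. Their growth and quiescence are set by surface receptors, among them TIE2 for the angiopoietins and the adrenomedullin receptor, in which RAMP2 escorts the receptor CALCRL to the cell surface. In bone, vessels grow together with osteoblasts, but a culture of calvarial cells has no blood flow and is usually taken as mesenchymal. Counts are of reads or fragments assigned to a gene. CPM are counts scaled to a common library total after TMM scaling, which corrects for differences in library makeup, and are given as mean ± SD with n = 3 per genotype. FPKM, the authors' values, are scaled to transcript length as well. Changes are log2 KO over WT ± SE, and a gene was called where the quasi-likelihood test of edgeR gave an adjusted p below 0.05 (Benjamini-Hochberg, over 18221 tested genes).

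The libraries held 61461870 to 76159034 counts in KO and 66308530 to 68395991 in WT. Stk38 itself fell in KO to 65.6% of its WT level (50.2 ± 2.31 CPM in KO against 76.6 ± 3.24 CPM in WT, edgeR adjusted p = 8.10e-06), so its mRNA was still read, and loss of the protein was not measured in these libraries. Col1a1, a chain of type I collagen made in bulk by osteoblasts and fibroblasts, averaged 3363 FPKM in KO and 4469 FPKM in WT. None of the 7 markers was too low to test: all passed edgeR's count filter, and the lowest single value was 12 counts. They were scarce all the same, with 957 to 1199 counts in all 7 together per KO library and 1714 to 1917 per WT library. Their summed level was 12.4 to 17.8 CPM in KO and 26.2 to 28.6 CPM in WT, most of it from Tek and Ramp2.

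In KO cultures 4 of the 7 markers fell, Cdh5, Ramp2, Plvap and Tek, and 0 rose. Pecam1, Egfl7 and Esam did not pass the test. Cdh5 was lowest relative to WT, at 32.4% of the WT level, then Ramp2 at 43.2%, Plvap at 52.3% and Tek at 56.6%. Of all tested genes 11.7% were called lower and 11.2% higher, and of tested genes with a mean count in the range of the markers 7.89% were called lower and 9.79% higher. Higher genes were 49.0% of all calls, and 63.0% on library totals without TMM, where the same 4 markers were called lower. The median log2 change was -0.82 over the 7 markers and 0.0038 over all genes tested. No marker was higher at an unadjusted p under 0.05 either, and DESeq2 and limma called 0 higher. In libraries of whole cultures, fewer cells of a type and less RNA per cell cannot be told apart.

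**Figure D1:**
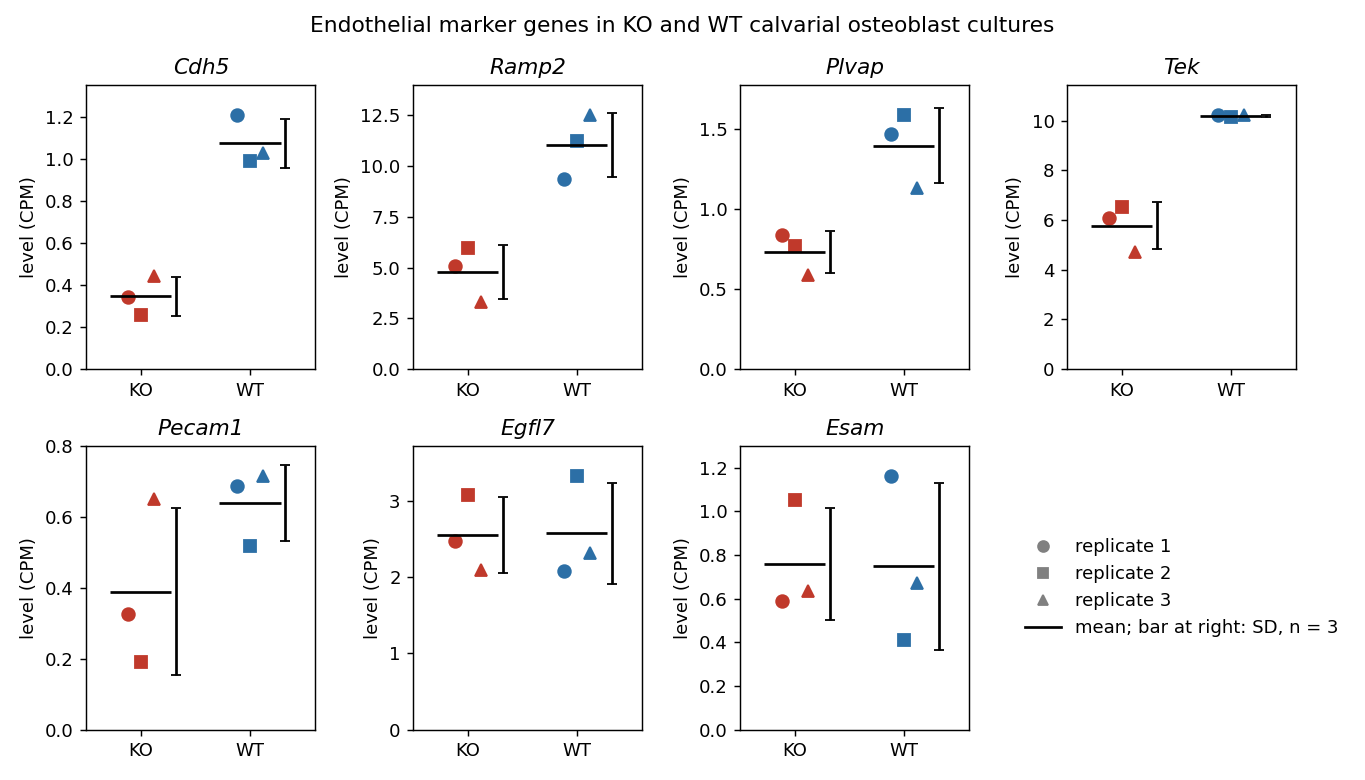
Level in CPM (y axis, from 0) of each of the 7 markers in every library, KO left and WT right; symbols mark replicates, lines the means, and the bar beside each group the SD (n = 3). The 3 KO values lie below the 3 WT values for Cdh5, Ramp2, Plvap and Tek, and the groups overlap for Pecam1, Egfl7 and Esam. Of all tested genes, 19.1% had all 3 KO values below all 3 WT values.

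Of the 3 junction genes, Cdh5 was called and Pecam1 and Esam were not, and differences between their changes were not tested. Cdh5 (ENSMUSG00000031871, chromosome 8), which encodes VE-cadherin, the adherens junction cadherin of endothelium, had 26, 16 and 34 counts in KO and 79, 65 and 69 in WT. Every KO library was below every WT library. The level was 0.346 ± 0.0936 CPM in KO against 1.08 ± 0.116 CPM in WT, a log2 change of -1.63 ± 0.34 (edgeR, Benjamini-Hochberg adjusted p = 0.00593), and the 95% interval of the KO level ran from 19.2% to 54.9% of WT. The spread between libraries was 27.1% of the mean in KO and 10.8% in WT, where counting alone gives 19.9% in KO and 11.9% in WT.

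Pecam1 (ENSMUSG00000020717, chromosome 11) encodes PECAM-1 or CD31, an adhesion molecule of endothelium that leukocytes and platelets also carry. It had 25, 12 and 50 counts in KO and 45, 34 and 48 in WT. KO replicate 3 lay among the WT libraries while the other KO libraries lay below them all. Its log2 change, -0.71 ± 0.48, was not called (edgeR, Benjamini-Hochberg adjusted p = 0.362), and its 95% interval, 29.1% to 129% of WT, holds both a loss as large as that of Cdh5 and no loss. Without KO replicate 3 the log2 change was -1.29, still not called (edgeR adjusted p = 0.113, and 0.113 to 0.637 over 12 alternatives).

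Esam (ENSMUSG00000001946, chromosome 9), an immunoglobulin-type adhesion molecule of endothelial tight junctions and platelets, had 45, 66 and 49 counts in KO and 76, 27 and 45 in WT. The WT libraries alone ran from 0.411 to 1.16 CPM, and all KO values lay inside that range. Its log2 change was 0.02 ± 0.43 (edgeR, Benjamini-Hochberg adjusted p = 0.984), with a wide interval of 52.2% to 196% of WT, so changes within these bounds were not detectable for this gene.

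The receptor genes had the highest mean CPM of the markers and the smallest SE of the log2 change. Tek (ENSMUSG00000006386, chromosome 4) encodes TIE2, the receptor tyrosine kinase for angiopoietins. It had 463, 410 and 363 counts in KO and 668, 666 and 685 in WT. The WT libraries were nearly level and every KO library was lower. It stood at 5.77 ± 0.943 CPM in KO against 10.2 ± 0.0387 CPM in WT, a log2 change of -0.82 ± 0.13 (edgeR, Benjamini-Hochberg adjusted p = 8.67e-04, 46.6% to 68.7% of WT). The spread in WT, 0.38% of the mean, was smaller than the 3.85% that counting alone gives, so this SD understates the error of the WT value. In KO the spread was 16.3% of the mean, above the 4.93% of counting.

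Of the TIE2 ligands, Angpt1 and Angpt2 were at higher CPM than Tek and Angpt4 at lower (1.19 CPM in KO against 1.95 CPM in WT, edgeR, Benjamini-Hochberg adjusted p = 0.131). Angpt1, the agonist made by mesenchymal and mural cells, stood at 41.1 CPM in KO against 50.6 CPM in WT, and its change of -0.30 ± 0.06 passed (edgeR, Benjamini-Hochberg adjusted p = 0.00561). In limma on log2(FPKM + 1) with no filter Angpt1 was not called (adjusted p = 0.0827). Angpt2, a context-dependent antagonist made by endothelium, stood at 14.7 CPM in KO against 20.7 CPM in WT (-0.50 ± 0.06, edgeR adjusted p = 2.21e-04). The count ratio of Tek to Angpt1 within a library was 0.148, 0.146 and 0.126 in KO against 0.198, 0.205 and 0.201 in WT, so Tek was lower also relative to this ligand.

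Ramp2 (ENSMUSG00000001240, chromosome 11) encodes the receptor activity-modifying protein that turns CALCRL into an adrenomedullin receptor. It had 387, 373 and 255 counts in KO and 614, 738 and 839 in WT. The highest KO library was well below the lowest WT library, and KO replicate 3 was the lowest of all. It stood at 4.78 ± 1.34 CPM in KO against 11.04 ± 1.57 CPM in WT, a log2 change of -1.21 ± 0.20 (edgeR, Benjamini-Hochberg adjusted p = 0.00120, 31.9% to 58.3% of WT). The spread between libraries, 28.1% of the mean in KO and 14.2% in WT, exceeded the counting error of 5.44% in KO and 3.70% in WT.

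The gene of the partner of RAMP2 was not called lower. Calcrl had 277, 195 and 258 counts in KO and 149, 205 and 200 in WT, and its log2 change was 0.27 ± 0.18, not called (edgeR, Benjamini-Hochberg adjusted p = 0.339). The count ratio of Ramp2 to Calcrl was 1.40, 1.91 and 0.988 in KO libraries against 4.12, 3.60 and 4.20 in WT libraries. These ratios do not overlap, and they do not depend on how libraries are scaled. The pair was chosen after the values were seen, and an exact two-sided permutation test (p = 0.1) could not pass with so few libraries. Adm, the gene of the ligand adrenomedullin, stood at 44.8 CPM in KO against 46.1 CPM in WT (-0.04 ± 0.06, edgeR adjusted p = 0.674). Calca, which encodes calcitonin and CGRP, was at 9, 0 and 4 counts in KO and 41, 32 and 35 in WT (edgeR, Benjamini-Hochberg adjusted p = 0.0135), though without WT replicate 1 it was not called (adjusted p = 0.0598).

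Plvap (ENSMUSG00000034845, chromosome 8) encodes the protein of the diaphragms that span the pores and caveolae of permeable endothelium. It had 64, 48 and 45 counts in KO and 96, 104 and 76 in WT. All KO libraries were below all WT libraries, with WT replicate 3 closest to them. It stood at 0.729 ± 0.130 CPM in KO against 1.39 ± 0.234 CPM in WT, a log2 change of -0.93 ± 0.27 (edgeR, Benjamini-Hochberg adjusted p = 0.0335, 34.2% to 80.0% of WT). This call was the least stable. It was lost in 8 of 12 alternatives, among them DESeq2 (adjusted p = 0.0582), edgeR without a count filter (adjusted p = 0.0565) and without each library other than WT replicate 3 (adjusted p = 0.0512 to 0.110), while the log2 change stayed below 0 in all 12.

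Egfl7 (ENSMUSG00000026921, chromosome 2) encodes a secreted factor of endothelium with EGF-like repeats. It had 189, 193 and 161 counts in KO and 136, 218 and 155 in WT. Replicate 2 was the highest in both genotypes, and the groups overlapped throughout. It stood at 2.55 ± 0.496 CPM in KO against 2.57 ± 0.660 CPM in WT, a log2 change of -0.01 ± 0.23 (edgeR, Benjamini-Hochberg adjusted p = 0.976, 69.3% to 141% of WT). Its sign turned with scaling and with the library left out. The gene also hosts the microRNA gene Mir126a, which had 1 count over all 6 libraries. Libraries of polyA RNA are not made to measure microRNA, so its level is not shown.

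Promoters are shown for Tek and Egfl7 because only these markers had an entry in the promoter set used. Whether these sequences bear on the changes in KO was not tested. Promoters, from 250 bases before to 50 after the start, were taken from RefSeq on GRCm38.p6. The deposited table uses other coordinates, of a build not settled here, so no deposited position is set against them. Of the 7 markers 2 matched, Tek with 1 start and Egfl7 with 3. Capitals mark AGGAAG or CGGAAG on either strand (CTTCCT or CTTCCG on the strand shown), 2 forms of the site bound by ETS factors such as ERG and FLI1. The first is Tek, chr4:94739039-94739338, plus strand, and the others are the first and second starts of Egfl7, chr2:26580833-26581132 and chr2:26583615-26583914, plus strand.
Tek: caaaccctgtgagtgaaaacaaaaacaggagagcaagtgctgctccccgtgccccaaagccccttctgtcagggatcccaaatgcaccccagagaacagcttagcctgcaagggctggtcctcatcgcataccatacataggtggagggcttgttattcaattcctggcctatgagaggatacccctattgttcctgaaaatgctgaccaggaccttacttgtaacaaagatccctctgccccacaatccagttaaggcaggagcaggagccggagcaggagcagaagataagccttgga
Egfl7 first start: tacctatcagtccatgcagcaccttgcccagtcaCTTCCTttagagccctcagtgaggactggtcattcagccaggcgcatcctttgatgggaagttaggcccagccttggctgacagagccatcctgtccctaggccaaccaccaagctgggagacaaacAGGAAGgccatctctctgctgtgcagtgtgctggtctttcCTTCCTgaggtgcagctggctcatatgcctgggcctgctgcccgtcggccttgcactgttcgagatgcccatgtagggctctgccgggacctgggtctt
Egfl7 second start: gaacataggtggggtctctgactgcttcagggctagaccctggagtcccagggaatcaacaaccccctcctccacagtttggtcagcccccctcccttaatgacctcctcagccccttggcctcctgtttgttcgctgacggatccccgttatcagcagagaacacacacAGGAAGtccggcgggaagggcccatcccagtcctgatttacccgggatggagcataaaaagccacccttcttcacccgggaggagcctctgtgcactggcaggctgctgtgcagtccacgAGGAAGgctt
The Tek window held 0 matches, the first Egfl7 window 3, the second 2 and the third, not printed, 0. Of 32851 promoter windows of this length 46.5% held at least 1 match and 15.9% held 2 or more. A match is a string of letters, not a shown site. Only these 2 forms were searched, so a window with 0 matches may still hold other forms of the site.

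Scaled to length, the markers ranked from Ramp2 and Tek at the top to Pecam1 at the bottom. In KO libraries Ramp2 averaged 1.37 ± 0.397 FPKM and Tek 1.17 ± 0.199 FPKM, and their ranges overlapped. Egfl7 at 0.665 ± 0.133 FPKM, Plvap at 0.349 ± 0.0652 FPKM and Esam at 0.250 ± 0.0859 FPKM followed, with overlap between Plvap and Esam. Cdh5 at 0.0777 ± 0.0206 FPKM and Pecam1 at 0.0582 ± 0.0349 FPKM were lowest and overlapped. In WT libraries Ramp2 averaged 3.08 ± 0.443 FPKM and Tek 1.999 ± 0.00701 FPKM, without overlap. Plvap (0.646 ± 0.110 FPKM) and Egfl7 (0.646 ± 0.165 FPKM) could not be told apart in WT, nor could Esam (0.237 ± 0.123 FPKM) and Cdh5 (0.235 ± 0.0256 FPKM), and Pecam1 was lowest at 0.0926 ± 0.0149 FPKM. So Plvap ranked with Egfl7 in WT and below it in KO, where their ranges did not overlap, and Cdh5 ranked with Esam in WT and below it in KO.

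**Figure D2:**
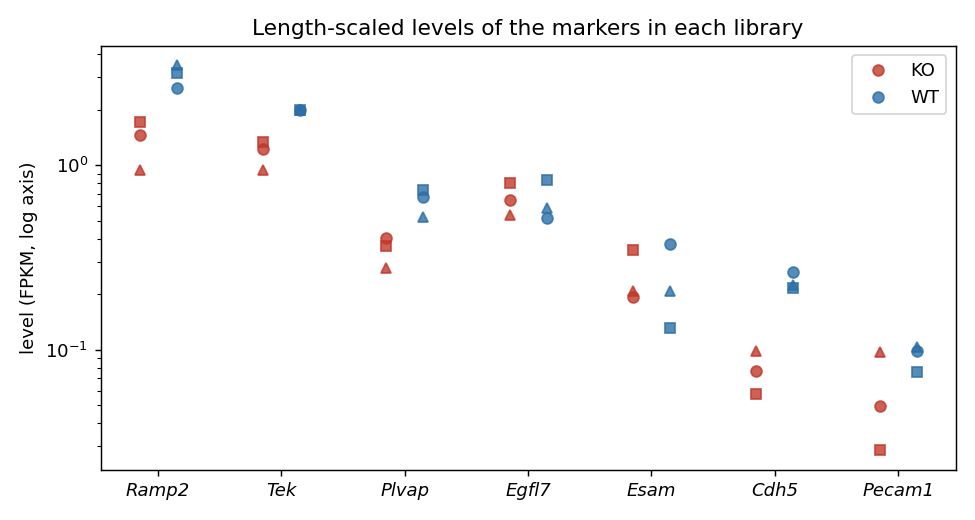
Level in FPKM (y axis, log scale) of the 7 markers in each library, ordered by their WT mean, KO left and WT right of each position; symbols mark replicates as circles (1), squares (2) and triangles (3). Ramp2 and Tek lead in both genotypes and Pecam1 is lowest in both.

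The markers did not share 1 pattern within KO. KO replicate 3 had the lowest CPM of the KO libraries for Tek, Ramp2, Plvap and Egfl7 but the highest for Cdh5 and Pecam1, and KO replicate 2 the reverse for Ramp2, Tek, Cdh5 and Pecam1. Ratios of counts within a library do not depend on scaling, and they restate the levels given above rather than test them anew. The ratio of Tek to Egfl7 was 2.45, 2.12 and 2.26 in KO against 4.91, 3.06 and 4.42 in WT. That of Ramp2 to Egfl7 was 2.05, 1.93 and 1.58 in KO against 4.52, 3.38 and 5.41 in WT, so both receptors were lower relative to Egfl7 in every KO library. The ratio of Cdh5 to Tek was 0.0562, 0.0390 and 0.0937 in KO against 0.118, 0.0976 and 0.101 in WT, where the highest KO value came close to the lowest WT value. The ratio of Plvap to Tek overlapped between genotypes, at 0.126 ± 0.0108 in KO and 0.137 ± 0.0234 in WT (SD, n = 3, exact two-sided permutation test p = 0.6). Of 10 ratios computed, chosen after the values were seen, the other 9 did not overlap and gave p = 0.1, the smallest that an exact two-sided permutation test of 3 against 3 allows (0.111 after Benjamini-Hochberg adjustment over the 10), so none could pass. For the CPM of single genes, all 3 KO values were below all 3 WT values in 19.1% of all tested genes. No such share was computed for ratios, so this figure is not a background for them.

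**Figure D3:**
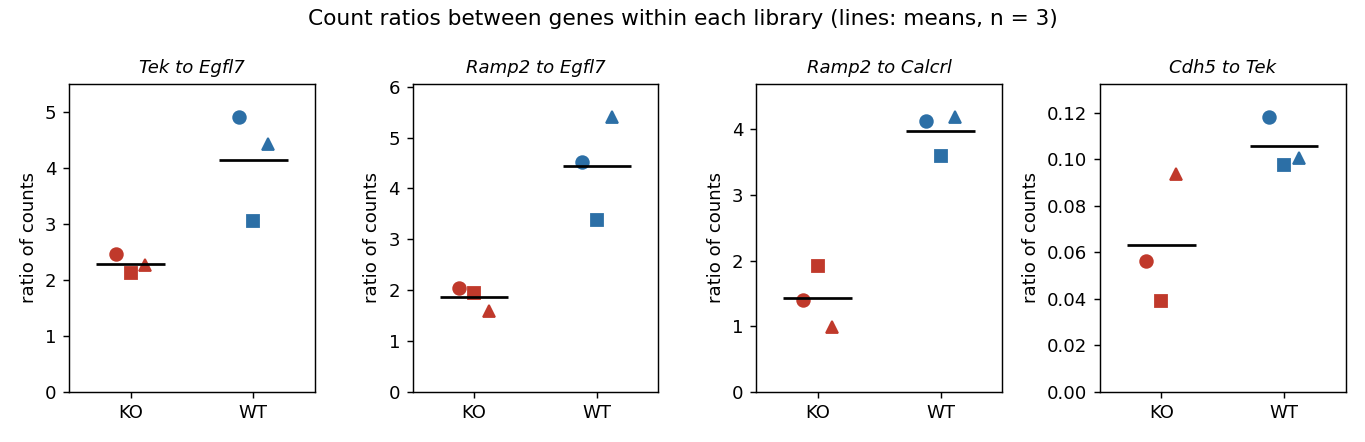
Ratio of counts between pairs of genes within each library (y axis, from 0), KO left and WT right; circles, squares and triangles are replicates 1, 2 and 3, and lines the means of n = 3. Tek to Egfl7, Ramp2 to Egfl7 and Ramp2 to Calcrl are lower in all KO libraries, and Cdh5 to Tek has its highest KO value, 0.0937, just under the lowest WT value, 0.0976.

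Other endothelial genes were called in both directions. The 3 further lists, of receptors, transcription factors and other endothelial genes, had 42 rows for 44 genes, of which 34 were tested, and 6 fell, 7 rose and 21 did not pass, with a median log2 change of 0.22, where 11.7% of all tested genes fell and 11.2% rose. Among the receptors and signalling genes 3 of 12 tested fell and 3 rose (median 0.15). Those that rose were Flt4, the VEGF-C receptor VEGFR3 (3.98 CPM in KO against 1.08 CPM in WT, 1.89 ± 0.17), the adhesion receptor gene Adgrl4 (5.80 CPM in KO against 1.67 CPM in WT, 1.79 ± 0.21) and Eng, the TGF-beta co-receptor endoglin, which mesenchymal cells also carry (0.17 ± 0.05). Those that fell were the adhesion receptor gene Adgrf5 (-0.40 ± 0.10), the BMP9 receptor gene Acvrl1 (-0.19 ± 0.04) and Flt1, which encodes VEGFR1 (-0.76 ± 0.24). The calls of Adgrf5, Eng and Flt1 were lost in 6 of 14, 4 of 14 and 8 of 12 alternatives.

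Of the endothelial transcription factors 9 were tested, 1 fell and 2 rose (median 0.64). Erg, an ETS factor that keeps endothelial identity, had 231, 130 and 179 counts in KO and 508, 518 and 611 in WT. The groups were far apart, at 2.47 CPM in KO against 8.25 CPM in WT, a log2 change of -1.73 ± 0.16 (edgeR, Benjamini-Hochberg adjusted p = 2.71e-05). Its relative Fli1 stood at 9.20 CPM in KO against 11.04 CPM in WT and was not called (-0.26 ± 0.10, edgeR adjusted p = 0.0812). Gata2 (13.2 CPM in KO against 4.59 CPM in WT, 1.53 ± 0.12) and the adaptor gene Lmo2 (4.21 CPM in KO against 1.56 CPM in WT, 1.43 ± 0.23) rose, and blood cell lineages also make both. Sox17, a factor of arterial endothelium, had 0 counts in every KO library and 1 count over the WT libraries.

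Of 13 other endothelial genes tested 2 fell and 2 rose (median 0.30). Cd34, a sialomucin of vessels that fibroblasts and progenitors also carry, stood at 70.5 CPM in KO against 93.2 CPM in WT (-0.40 ± 0.03), and Clec14a, a lectin-like protein of vessel walls, at 8.42 CPM in KO against 13.05 CPM in WT (-0.63 ± 0.12). Cd93, a lectin-like receptor of endothelium and myeloid cells, was higher at 11.3 CPM in KO against 4.48 CPM in WT (1.34 ± 0.12), and so was Cyyr1 (1.49 ± 0.25). Some genes used to define endothelium were low in all libraries, and others of the same lists were not, such as the sphingosine receptor gene S1pr1 at 98.1 CPM in KO against 88.8 CPM in WT (edgeR, Benjamini-Hochberg adjusted p = 0.0527). Kdr, the main VEGF receptor, had 38, 14 and 35 counts in KO and 8, 16 and 26 in WT. Vwf, which encodes von Willebrand factor, had 13, 0 and 24 in KO and 4, 0 and 16 in WT, and the guidance receptor gene Robo4 had at most 4 counts in any library. The libraries do not show which cells gave the reads of Tek, Ramp2 or the other markers.

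**Figure D4:**
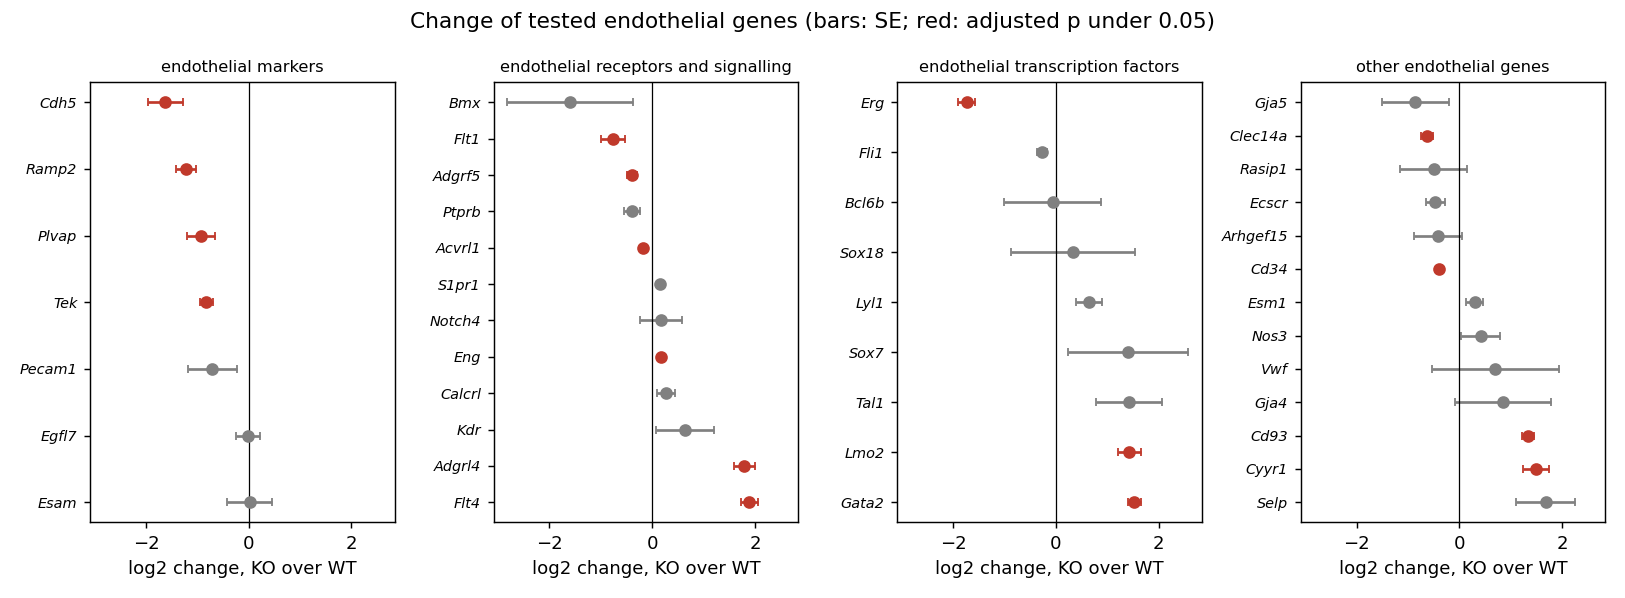
Log2 change KO over WT (x axis) of the 7 markers and of the tested genes of the 3 further endothelial lists; bars are the SE, red points have an adjusted p under 0.05 in edgeR and grey points do not. In the markers the red points lie at -0.82 to -1.63, while in each further list red points lie on both sides of 0.

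Genes of other cell types that share some of these markers moved as follows, where 11.7% of all tested genes were called lower and 11.2% higher. Of 18 macrophage genes 16 rose and 0 fell, with a median log2 change of 1.37 and a summed level of 1075 to 1185 CPM in KO against 422 to 554 CPM in WT. Among them C1qc stood at 27.0 CPM in KO against 8.97 CPM in WT, C1qb at 30.1 CPM in KO against 10.8 CPM in WT, Cd68 at 34.8 CPM in KO against 13.3 CPM in WT and Mrc1 at 94.7 CPM in KO against 39.8 CPM in WT, so Pecam1, which macrophages can carry, stood at a lower share of them in KO. The count ratio of Pecam1 to the leukocyte gene Ptprc was 0.0398, 0.0213 and 0.0694 in KO against 0.227, 0.172 and 0.170 in WT. Ptprc itself rose (1.37 ± 0.15) while Pecam1 was not called, and the pair was chosen after the values were seen. The ratio does not show which cells gave the Pecam1 reads. The part of macrophage RNA in the changes of Pecam1, Cd93, Gata2 and Lmo2 was not tested. Of 6 platelet genes with a row 4 were tested and 0 were called by edgeR (1 at an unadjusted p under 0.05, 0 by DESeq2, and 1 by limma on log2(FPKM + 1), Pf4, which was higher with adjusted p = 0.0343), with a summed level of 5.56 to 6.19 CPM in KO and 5.38 to 6.13 CPM in WT. The erythroid gene Alas2 had at most 7 counts in any library. Among 10 osteoblast genes 5 fell and 2 rose, with Alpl at -1.19 ± 0.06 and Spp1 at 1.39 ± 0.07.

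By closeness of the centred log2 CPM profile over the 6 libraries, taken as the root mean square difference, the genes most like Tek were Atp1b2 (0.0773), Ppfibp2 (0.0856) and Zfp944 (0.0910). Those nearest to Ramp2 were Cmbl (0.102), Grik1 (0.119) and Gria1 (0.125), and those nearest to Plvap were Slc25a27 (0.0796), Atp8a2 (0.0823) and Adgrb2 (0.0863). For Egfl7 they were Iqck, Lockd and B3gntl1 (0.0797 to 0.102), and for Esam Trarg1, Lrrc71 and Ccno (0.158 to 0.188). None of the 15 is a gene of the endothelial lists used here. The 3 further endothelial lists held only 34 of the 18221 tested genes, so this absence carries little weight. The likeness describes these 6 libraries only.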

How the data were processed

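RNA-seq was done on 3 KO and 3 WT libraries of polyA RNA, grouped by the labels. The deposited table held raw counts per gene in whole numbers, per the file headers, by a method not given in the sources used here. It also held FPKM computed by the authors, per the file headers. Tools listed in the submitters' processing notes were HISAT2 2.0.4, StringTie 1.3.4d and cutadapt 1.9, beside a human build, although the identifiers are of mouse. Whether counting used strand was not given, and Mir126a, inside Egfl7, was the only row that overlapped a marker.

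The test was the two-sided quasi-likelihood test of edgeR 4.0.16 in R 4.3.3, with TMM scaling and genotype as the only term, on the 18221 genes that filterByExpr kept. The SE was the size of the log2 change divided by the root of F, and 95% intervals used the t quantile at the total degrees of freedom. Alternatives used DESeq2 1.42.0, limma 3.58.1 on log2(FPKM + 1) or log2(FPKM + 0.1), where genes averaged 0.5 FPKM or more or no filter was set, other scalings, no count filter, a replicate block, and each library left out. The pipeline was tested on simulated data. The common biological coefficient of variation was 12.6%. Error estimates cover counting and the spread between these libraries only. The markers, lists and tests were chosen with earlier results of these data known. Named genes were the markers, Stk38 and up to 4 tested genes of lowest p in each list, plus the 3 nearest profiles of each marker with a mean of at least 50 counts. Genes named outside this rule, such as Calcrl, Adm, Angpt4, S1pr1, Kdr, Vwf, Robo4, Eng, Flt1 and Ptprc, were chosen after their values were seen.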

Additional observations from a re-analysis of the deposited data

How the results depend on the processing

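Cdh5, Tek and Ramp2 stayed lower and called in edgeR, DESeq2 and limma wherever they were tested. The number of markers called lower was 4, and it was 2 in limma on log2(FPKM + 1) and 2 on log2(FPKM + 0.1), where the filter left only Tek, Ramp2 and Egfl7. It was 3, without Plvap, in DESeq2, in edgeR without a count filter and in limma with no filter, where all 7 were tested. With a library left out it was 3 to 4, being 4 only when WT replicate 3 was the one left out, while the genes called in all were 3317 to 3576 against 4179. With a replicate block edgeR called 3888 genes and 4 markers, and no marker's call changed. Whether equal replicate numbers mark paired samples was not given. Same-numbered deviations correlated at -0.0445, -0.0301 and -0.0069, and differently numbered ones at -0.0144 to 0.0459. All lie near 0, and such a check cannot exclude pairing. Egfl7, near 0, turned positive on library totals (0.035), in limma on log2(FPKM + 1) (0.018 with and 0.018 without the filter) and on log2(FPKM + 0.1) (0.044), and ran from -0.17 to 0.21 with a library left out. Esam ran from -0.28 to 0.48 and Prox1 from -0.47 to 0.30 with a library left out, and Prox1 stood at -0.0067 with a replicate block. The causes were not tested. Calls were 49.0% higher after TMM, 63.0% on library totals and 64.3% in limma. Pecam1, Esam, Cdh5 and Plvap averaged only 35.7 to 72.2 counts per library. Spread between libraries exceeded counting error for Esam (33.5% against 13.7% in KO, 51.0% against 14.2% in WT) and for Pecam1 in KO (60.5% against 18.6%). Every marker exceeded it in both genotypes, except Tek and Cdh5 in WT.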

Other observations

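Genes of cells and signals around vessels were called in both directions, where 11.7% of all tested genes were called lower and 11.2% higher. Of 11 mural cell genes 5 rose and 4 fell, with Rgs5, a marker of pericytes, at 9.96 CPM in KO against 2.35 CPM in WT (2.08 ± 0.15) and Abcc9, a channel subunit of pericytes and smooth muscle, at 1.98 CPM in KO against 5.48 CPM in WT (-1.47 ± 0.19), while Acta2 and Pdgfrb, which myofibroblasts also make, were at -0.20 ± 0.03 and -0.15 ± 0.03. Of 10 tested ligands of endothelial receptors 1 rose and 3 fell. Vegfa, the main growth factor for vessels, was the 1 that rose, at 41.6 CPM in KO against 27.6 CPM in WT (0.59 ± 0.06, edgeR, Benjamini-Hochberg adjusted p = 3.66e-05). Of 2 tested lymphatic genes Pdpn, which osteoblast-lineage cells also make, rose (111 CPM in KO against 87.0 CPM in WT, 0.35 ± 0.04), and Prox1, the lymphatic master regulator, was at 0.02 ± 0.44 and not called. Lyve1 had at most 4 counts in any KO library and 20 in any WT library.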
